A study of Mus musculus with 24 samples.

Results

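Polycomb genes were examined in sorted cells of 3 mouse mammary carcinoma lines. The 10 genes were Ezh1, Ezh2, Eed, Suz12, Jarid2, Phf19, Mtf2, Bmi1, Cbx7 and Cbx2, taken by symbol without regard to case, and all 10 were found in each of the 3 deposited count tables, out of 24012 symbols that the tables share. The 24 bulk RNA libraries came from 12 tumours, 4 each of 4T07, D2A1 and EMT6. All of the cells carried mCherry and mVenus-p27K, a fluorescent reporter built on the cyclin-dependent kinase inhibitor p27, whose signal is high in resting cells. Cells (250000 per animal) were placed in a mammary fat pad of female Balb/cJ mice, and tumours were taken on day 14. From each tumour a p27K high population, which the labels call quiescent cancer cells, and a p27K negative population, described as proliferative, were sorted by flow cytometry after staining for CD45 and with DAPI. The sources used here do not give the age of the mice, the gate settings or whether a transduced line was 1 clone. Each line was sequenced in a run of its own, so line and run cannot be told apart.

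Polycomb proteins keep genes silent through histone marks. The Polycomb repressive complex PRC2 methylates a lysine in the tail of histone H3, and has either EZH2 or EZH1 as its catalytic subunit. EZH2 has the stronger methyltransferase activity and is typical of dividing cells, and EZH1 is found in dividing and in resting cells. EED and SUZ12 belong to the core of PRC2, and PRC1, which ubiquitinates histone H2A, is brought to methylated sites in part by CBX proteins.

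Library sizes limit precision most in D2A1. Total counts ran from 6715332 to 45371953 over the 12 p27K high libraries and from 1332445 to 35111181 over the 12 p27K negative libraries. The 3 smallest were p27K negative ones of D2A1 (tumours 1, 2 and 3), at 1332445, 2105950 and 1797966 counts. The p27K high library of 4T07 tumour 2 stood apart, with 13481 genes detected, against 15072 to 15350 in the other 3 of its group. Cdkn1b, which encodes p27, was higher in p27K high cells of all 12 tumours, and the proliferation marker Mki67 was lower in all 12. Of 5 markers of the labelled tumour epithelium, Krt8 and Krt18 had the highest means in each line. The 5 markers summed to 433 to 572 CPM (counts scaled to library size by TMM) in p27K high and 566 to 688 CPM in p27K negative libraries of 4T07. The sum was 93.0 to 204 and 62.6 to 455 CPM in the p27K high and the p27K negative libraries of D2A1, and 604 to 861 and 751 to 1043 CPM in those of EMT6. Epcam and Krt14 had means of at most 3.17 CPM in either gate of any line. Mean Cdh1 was 15.8 and 15.4 CPM in p27K high and p27K negative cells of 4T07, 0.922 and 20.7 CPM in D2A1, and 0.216 and 0.263 CPM in EMT6. Mean Krt8 was 8.0 CPM in p27K high and 59.1 CPM in p27K negative cells of D2A1. The p27K negative libraries of D2A1 were far apart, at 0 to 81.1 CPM for Cdh1 and 3.72 to 143.6 CPM for Krt8. In p27K high libraries of D2A1 the ranges were 0 to 3.32 CPM for Cdh1 and 1.49 to 12.7 CPM for Krt8. The D2A1 means of these genes are therefore no measure of a typical library. The T and NK, B and erythroid lists each summed to at most 2.04 CPM in any library, and Hbb-bs and Hba-a1 were at 0 in all 8 libraries of 4T07.

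Macrophage and monocyte markers moved with the gate in 4T07. Their 12 genes summed to 177 to 198 CPM in p27K high and 584 to 1324 CPM in p27K negative libraries of 4T07, and all 12 fell. The leukocyte list, with Ptprc as its defining gene, summed to 13.2 to 25.2 CPM in p27K high and 66.4 to 137 CPM in p27K negative libraries of 4T07. The macrophage sum was 142 to 181 CPM in p27K high and 74.3 to 136 CPM in p27K negative libraries of D2A1, most of it from Cd14, at a mean of 137 CPM in p27K high and 61.7 CPM in p27K negative cells. Of the 12 genes, 10 had a lower mean in p27K high cells of D2A1, Lyz2 and Csf1r among them, and by the test 1 rose and 1 fell of the 9 tested. In EMT6 the sum was 46.4 to 60.5 CPM in p27K high and 33.1 to 47.6 CPM in p27K negative libraries. Cd68, Csf1r and Cd14 had a higher mean in p27K high cells of EMT6 and the other 9 genes a lower one, and 3 rose and 1 fell of the 7 tested. The leukocyte sum was at most 3.70 CPM in p27K high and 4.99 CPM in p27K negative libraries of D2A1 and EMT6. The fibroblast list summed to 1484 to 2267 CPM in p27K high and 577 to 740 CPM in p27K negative libraries of 4T07. There 2 of its 5 tested genes rose and 1 fell. Most of that sum came from Dcn, at means of 1142 CPM in p27K high and 265 CPM in p27K negative cells, and Pdgfra, at 704 and 314 CPM. The other 4 genes, the collagen genes Col1a1 and Col3a1 among them, had a lower mean in p27K high cells of 4T07. The fibroblast sum was 649 to 749.9 CPM in p27K high and 512 to 706 CPM in p27K negative libraries of D2A1, where 1 of 6 genes rose and 3 fell. Pdgfra had means of 526 CPM in p27K high and 249 CPM in p27K negative cells of D2A1, and 4 of the 6 genes had a lower mean in p27K high cells. In EMT6 it was 2777 to 4282 CPM in p27K high and 2257 to 3356 CPM in p27K negative libraries, and 5 of 6 genes rose. The neutrophil list summed to 17.3 to 57.1 CPM in p27K high and 52.7 to 66.2 CPM in p27K negative libraries of 4T07, and to at most 8.83 CPM in p27K high and 4.44 CPM in p27K negative libraries of the other lines. The endothelial list summed to 1.71 to 3.46 CPM in p27K high and 6.8 to 11.6 CPM in p27K negative libraries of 4T07, where all 3 tested genes fell. In D2A1 the endothelial sum was 0.307 to 3.42 CPM in p27K high and 7.21 to 25.3 CPM in p27K negative libraries, and the 2 tested genes fell. It was 0.85 to 5.88 CPM in p27K high and 1.27 to 12.6 CPM in p27K negative libraries of EMT6, where no gene of the list could be tested. The part of these cells in the results that follow was not tested.

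The balance of the catalytic subunits differed between the gates in every tumour. Ezh1 (chromosome 11, 101191115 to 101226463, minus strand) was higher and Ezh2 (chromosome 6, 47530139 to 47595341, minus strand) lower in p27K high cells of all 12 tumours. In 4T07, Ezh1 stood at 67.8, 62.4, 67.5 and 57.3 CPM in p27K high cells of tumours 1 to 4, against 38.8, 31.1, 41.2 and 32.1 CPM in p27K negative cells. In D2A1 the Ezh1 levels were 71.9, 68.9, 70.6 and 81.0 CPM in p27K high cells and 32.0, 36.1, 33.8 and 37.1 CPM in p27K negative cells. In EMT6, whose tumours carry the column numbers 0, 1, 2 and 4, they were 40.5, 39.5, 36.1 and 41.4 CPM in p27K high cells and 22.3, 28.9, 22.2 and 26.95 CPM in p27K negative cells. The lowest p27K high library lay above the highest p27K negative library of its line in each case. The change of Ezh1, given as the log2 ratio of p27K high to p27K negative cells within tumours, was 0.84 ± 0.09 (SE, n = 4 tumours) in 4T07, with an edgeR adjusted p of 2.85e-04. It was 1.07 ± 0.12 in D2A1 (adjusted p = 2.72e-05) and 0.66 ± 0.08 in EMT6 (adjusted p = 9.28e-05). Ezh1 rose in all 3 lines by this test, at which 45.6% of 12831 genes tested were called in 4T07, 29.5% of 12829 in D2A1 and 49.2% of 13338 in EMT6. In these bulk samples, fewer cells with a transcript and less of it per cell cannot be told apart.

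Ezh2 moved the other way. In 4T07 it stood at 22.6, 33.8, 25.6 and 21.6 CPM in p27K high cells of tumours 1 to 4, against 85.3, 115, 107 and 96.1 CPM in p27K negative cells. In D2A1 the Ezh2 levels were 39.5, 36.5, 43.4 and 34.8 CPM in p27K high cells and 131, 115, 133 and 113 CPM in p27K negative cells. In EMT6 they were 32.3, 27.5, 29.7 and 25.7 CPM in p27K high cells and 99.5, 94.4, 91.8 and 92.5 CPM in p27K negative cells. All p27K high libraries lay far below all p27K negative libraries of the same line. The log2 change of Ezh2 was -1.97 ± 0.10 in 4T07, -1.68 ± 0.11 in D2A1 and -1.72 ± 0.06 in EMT6 (SE, n = 4 tumours each), with adjusted p-values of 5.29e-06, 1.23e-07 and 1.85e-08. Ezh2 therefore fell in all 3 lines, and its change lay at percentile 5.97 of all genes tested in 4T07, 2.92 in D2A1 and 2.26 in EMT6. Its exons overlap those of Gm26625 on the opposite strand, and whether counting used strand is not known.

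**Figure D1:**
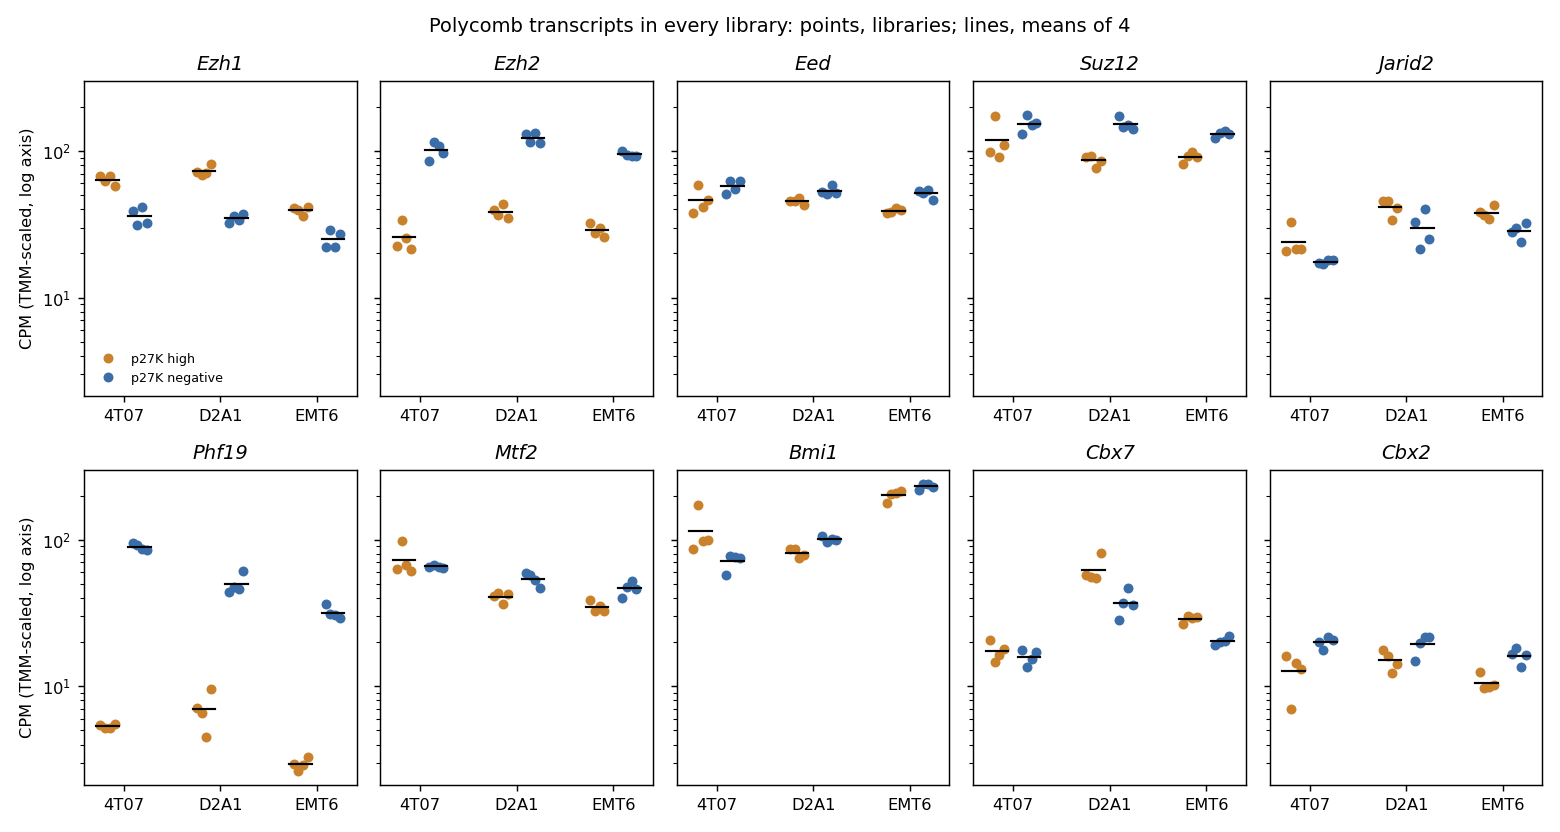
Level of each Polycomb transcript in every library, in TMM-scaled CPM on a log axis, by line, with p27K high cells left of p27K negative cells and a line at the mean of 4. Ezh1 sits higher and Ezh2 and Phf19 lower in all p27K high libraries, and a single p27K high library of 4T07 stands above the others for Suz12, Mtf2, Bmi1 and Jarid2.

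The counts of both genes in a library give their ratio free of library scaling. In 4T07 the ratio of Ezh1 to Ezh2 counts was 3.00, 1.84, 2.64 and 2.65 in p27K high cells of tumours 1 to 4, against 0.455, 0.271, 0.383 and 0.334 in p27K negative cells. In D2A1 it was 1.82, 1.89, 1.63 and 2.33 in p27K high cells and 0.247, 0.314, 0.257 and 0.328 in p27K negative cells. In EMT6 it was 1.26, 1.44, 1.22 and 1.61 in p27K high cells and 0.224, 0.307, 0.242 and 0.292 in p27K negative cells. Ezh1 had the larger count in all 12 p27K high libraries and Ezh2 in all 12 p27K negative libraries. Within tumours the ratio was 7.03-fold higher in p27K high cells of 4T07, 6.68-fold in D2A1 and 5.19-fold in EMT6. On the log2 scale these changes were 2.81 ± 0.12, 2.74 ± 0.14 and 2.38 ± 0.12 (SD, n = 4 tumours each). With 4 tumours the two-sided exact permutation test that flips the sign of each tumour cannot go below 0.125, the value it gave in each line. Over 12 tumours the log2 change of the ratio was 2.64 ± 0.23 (SD), positive in 12 of 12. The same exact test gave p = 0.0004883, the smallest it can give.

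The size of the shift differed between EMT6 and each of the other lines. The mean log2 change of the ratio was 0.44 higher in 4T07 than in EMT6 and 0.36 higher in D2A1 than in EMT6 (two-sided exact permutation test of 4 against 4 tumours, p = 0.0286 each, the smallest it allows, and 0.0429 when adjusted over 3 pairs of lines). Without EMT6 tumour 1 or 2 the adjusted p of both was 0.0857. The change in 4T07 was 0.08 higher than in D2A1 (exact p = 0.457). Line and run cannot be told apart in these differences.

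**Figure D2:**
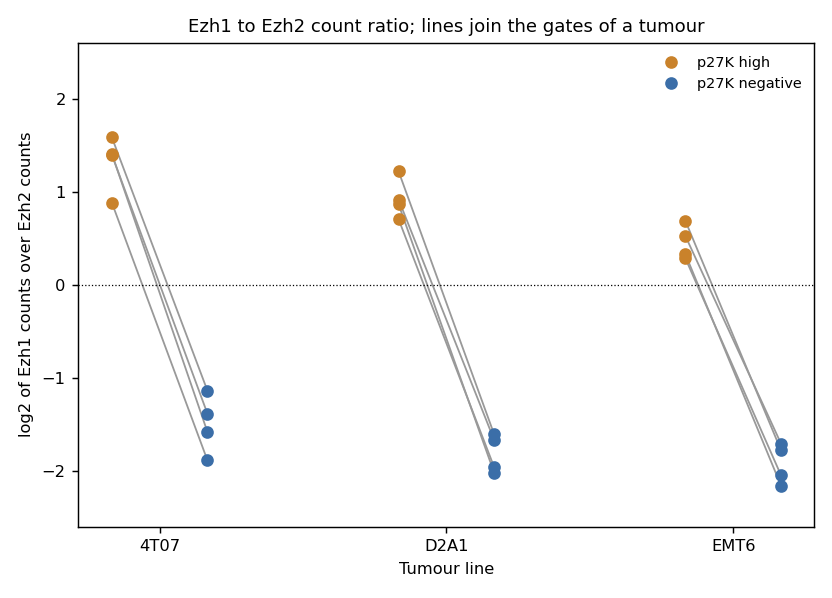
The log2 of Ezh1 counts over Ezh2 counts in each library, with a line joining the p27K high (left) and p27K negative (right) library of a tumour, by line. All 12 p27K high libraries lie above 0, at equal counts, and all 12 p27K negative libraries below it.

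Counts per length allow the transcripts to be compared with each other. CPM was divided by the length of the longest coding transcript of GENCODE vM21, 4207 bases for Ezh1 and 2787 bases for Ezh2. On this scale Ezh1 made up 62.2 ± 5.0% (SD, n = 4) of the summed level of both genes in p27K high cells of 4T07, against 19.2 ± 3.4% in p27K negative cells. In D2A1 the Ezh1 share was 55.7 ± 3.7% in p27K high cells and 15.9 ± 1.9% in p27K negative cells. In EMT6 it was 47.6 ± 3.2% in p27K high cells and 15.0 ± 1.9% in p27K negative cells. Ezh1 was thus the larger of the transcripts per length in p27K high cells of 4T07 and D2A1, while in EMT6 its share of 44.6 to 51.6% lay on both sides of an equal split. With merged exons as the length, a choice made after seeing the data, the shares in p27K high cells were 69.0%, 63.0% and 55.2% in 4T07, D2A1 and EMT6, so the side on which EMT6 falls depends on the length used. The summed level of both genes was lower in p27K high cells. In 4T07 it was 24.5 ± 2.3 CPM per kilobase in p27K high and 44.7 ± 4.4 in p27K negative cells (SD, n = 4 each). It was 31.2 ± 1.2 in p27K high and 52.4 ± 3.2 in p27K negative cells of D2A1, and 19.7 ± 1.0 in p27K high and 39.9 ± 1.3 in p27K negative cells of EMT6.

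Among all 10 members per length, Phf19 was the lowest in p27K high cells of each line and Bmi1 had the highest mean, with either gene length. In p27K high cells of D2A1 the range of Bmi1 overlapped those of Eed and Suz12. In p27K high cells of 4T07 the order by mean level was Bmi1, Suz12, Eed, Mtf2, Ezh1, Ezh2, Cbx7, Jarid2, Cbx2 and Phf19, and the neighbours from Bmi1 to Ezh1 and from Cbx7 to Cbx2 overlapped in range. In p27K negative cells of 4T07 it was Ezh2, Suz12, Eed, Phf19, Bmi1, Mtf2, Ezh1, Cbx2, Cbx7 and Jarid2, where the ranges of neighbours overlapped from Ezh2 to Phf19, for Bmi1 and Mtf2, and for Cbx2 and Cbx7. Ezh2 had the highest mean in p27K negative cells of 4T07 and D2A1, at 36.2 and 44.1 CPM per kilobase. With merged exons as the length Suz12 was the highest there, at 30.9 CPM per kilobase in both lines, and Ezh2 stood at 15.1 and 18.4, so its rank depends on the length used. In EMT6 Bmi1 had the highest mean in both gates, at 56.0 CPM per kilobase in p27K high and 64.5 in p27K negative cells, above the range of every other member.

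Promoter sequences were read for the members that fell in all 3 lines, Ezh2, Suz12 and Phf19, and for Ezh1, which rose in all 3. E2F transcription factors bind a short element in many genes of the cell cycle, and 2 common forms of it, TTCCCGC and TTGGCGC, were searched on both strands from 250 bases before to 50 bases after the start. The sequences are those of RefSeq on GRCm38.p6, given 5' to 3' on the strand of the gene, with a matching E2F form in capitals.
Ezh2, chr6:47594981-47595280, minus strand: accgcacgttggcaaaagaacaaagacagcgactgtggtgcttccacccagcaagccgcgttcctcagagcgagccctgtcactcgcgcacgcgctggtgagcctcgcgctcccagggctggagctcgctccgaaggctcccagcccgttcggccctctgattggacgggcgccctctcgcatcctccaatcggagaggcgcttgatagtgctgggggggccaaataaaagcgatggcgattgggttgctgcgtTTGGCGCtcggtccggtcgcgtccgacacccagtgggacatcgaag
Phf19, chr2:34913927-34914226, minus strand: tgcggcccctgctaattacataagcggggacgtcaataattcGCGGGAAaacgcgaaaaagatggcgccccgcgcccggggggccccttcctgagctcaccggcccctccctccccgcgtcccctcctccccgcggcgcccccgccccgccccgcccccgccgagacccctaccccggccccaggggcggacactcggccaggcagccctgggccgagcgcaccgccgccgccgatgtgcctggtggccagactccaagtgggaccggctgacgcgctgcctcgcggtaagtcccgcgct
Suz12, chr11:79992856-79993155, plus strand: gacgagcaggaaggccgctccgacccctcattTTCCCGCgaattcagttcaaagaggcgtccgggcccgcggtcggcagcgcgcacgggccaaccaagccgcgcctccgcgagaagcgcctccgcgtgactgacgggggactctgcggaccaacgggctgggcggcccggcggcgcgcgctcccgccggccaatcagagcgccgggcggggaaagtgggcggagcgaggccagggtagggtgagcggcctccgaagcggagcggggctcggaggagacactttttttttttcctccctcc
Ezh1, chr11:101226414-101226713, minus strand: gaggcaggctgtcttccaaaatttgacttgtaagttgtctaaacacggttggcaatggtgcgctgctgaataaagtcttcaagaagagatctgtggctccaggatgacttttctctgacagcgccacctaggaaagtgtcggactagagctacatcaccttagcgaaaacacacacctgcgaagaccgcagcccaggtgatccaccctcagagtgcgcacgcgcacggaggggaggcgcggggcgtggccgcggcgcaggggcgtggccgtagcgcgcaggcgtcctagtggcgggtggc
The Ezh2 form began at position 5 after the start, that of Phf19 at -208, where its reverse complement is printed, and that of Suz12 at -218. These were the 3 members with a form among the 9 with a promoter entry, and none of the forms overlapped another motif searched. Of all 32851 promoters in the table, 6.81% held either form. The CHR element TTTGAA stood in promoters of 4 members and in 17.9% of all promoters, and the CCAAT box in 6 members and 37.4% of all. The 9 members had 11 promoters, so a count of members and a share of promoters are unlike units. Cbx2 had no entry. A match is a description of the letters and no measure of binding.

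The core subunits fell where they passed the test. Suz12 (chromosome 11, 79993106 to 80034123, plus strand), the scaffold of the complex, stood at 97.8, 174, 91.4 and 110.0 CPM in p27K high cells of 4T07 tumours 1 to 4, against 131, 175, 150.3 and 155 CPM in p27K negative cells. In D2A1 it stood at 76.5 to 92.0 CPM in p27K high and 140 to 174 CPM in p27K negative cells, and in EMT6 at 81.8 to 99.1 CPM in p27K high and 123 to 137 CPM in p27K negative cells. The gates overlapped in 4T07 and did not in the other lines. Suz12 fell by 0.41 ± 0.12 on the log2 scale in 4T07 (adjusted p = 0.0249), 0.82 ± 0.11 in D2A1 (adjusted p = 1.33e-04) and 0.53 ± 0.05 in EMT6 (adjusted p = 1.6e-05). Eed (chromosome 7, 89954654 to 89980983, minus strand), which binds the mark that the complex makes, stood at 37.9 to 58.2 CPM in p27K high and 51.0 to 62.6 CPM in p27K negative cells of 4T07. Eed stood at 42.8 to 47.6 CPM in p27K high and 51.1 to 58.2 CPM in p27K negative cells of D2A1, and at 37.8 to 41.0 CPM in p27K high and 46.5 to 54.4 CPM in p27K negative cells of EMT6. Eed fell by 0.34 ± 0.09 on the log2 scale in 4T07 (adjusted p = 0.0187) and by 0.40 ± 0.06 in EMT6 (adjusted p = 4.82e-04). Its change in D2A1, -0.23 ± 0.12, did not pass the test (adjusted p = 0.164), although it was lower in p27K high cells of 4 of 4 tumours.

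A single tumour weighed on the 4T07 values. Without tumour 2 of 4T07 the changes were -0.54 for Suz12 (adjusted p = 7.16e-05) and -0.42 for Eed (adjusted p = 1.84e-04). Without tumour 1, 3 or 4, or without pairing the gates by tumour, neither passed the test in 4T07. Both genes have exon overlaps with a gene on the opposite strand.

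Ratios between other members were added after their values were seen. The ratio of Ezh2 to Eed counts changed by -1.46 ± 0.19 on the log2 scale within 12 tumours (SD), and that of Ezh2 to Suz12 by -1.20 ± 0.34, both lower in p27K high cells of 12 of 12. The ratio of Suz12 to Eed changed by -0.26 ± 0.27 (SD, n = 12 tumours), lower in 10 of 12. In 4T07 that change was -0.07 ± 0.17 (SD, n = 4), with 2 tumours on either side of 0, whereas in D2A1 it was -0.59 ± 0.14. As these ratios were chosen for their values, they are a description and no test is given.

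**Figure D3:**
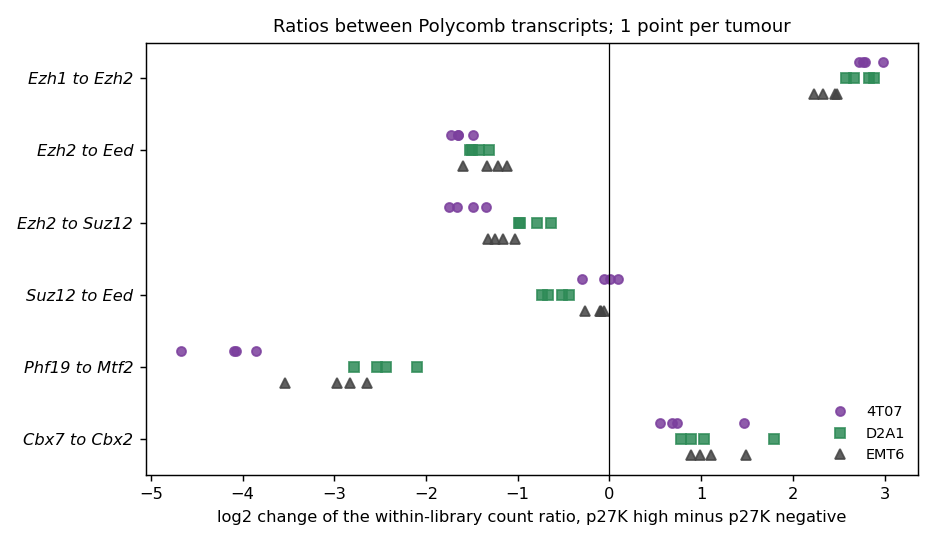
Log2 change of 6 within-library count ratios, p27K high minus p27K negative, with a point for each of 12 tumours and a marker for each line. Ezh1 to Ezh2 and Cbx7 to Cbx2 lie right of 0 in 12 of 12 tumours, and Phf19 to Mtf2 lies farthest to the left.

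Of the accessory PRC2 subunits, Phf19 had the largest change of any member and its relatives did not follow it to that size. Phf19 (chromosome 2, 34893757 to 34914026, minus strand) and Mtf2 (chromosome 5, 108065674 to 108109004, plus strand) encode Polycomb-like proteins, which bring PRC2 to chromatin. In 4T07 Phf19 stood at 5.47, 5.16, 5.21 and 5.56 CPM in p27K high cells of tumours 1 to 4, against 95.4, 91.5, 86.1 and 85.1 CPM in p27K negative cells. In D2A1 the Phf19 levels were 7.14, 6.57, 4.49 and 9.60 CPM in p27K high cells and 43.9, 47.4, 46.0 and 60.9 CPM in p27K negative cells. In EMT6 they were 2.97, 2.66, 2.90 and 3.27 CPM in p27K high cells and 36.1, 31.0, 30.7 and 29.3 CPM in p27K negative cells. The 4T07 libraries of a gate lay close together, and no p27K high library came near a p27K negative one. The log2 change of Phf19 was -4.06 ± 0.10 in 4T07, -2.83 ± 0.17 in D2A1 and -3.42 ± 0.10 in EMT6 (SE, n = 4 tumours each), with adjusted p-values of 3.06e-07, 2.96e-08 and 6.6e-09. These changes were not equal in the 3 lines (edgeR test of equal change, adjusted p = 2.2e-04).

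Mtf2 gave 60.8 to 97.6 CPM in p27K high and 64.3 to 67.7 CPM in p27K negative cells of 4T07, where the p27K high libraries other than that of tumour 2 gave at most 67.4 CPM. It gave 36.2 to 43.1 CPM in p27K high and 46.6 to 59.5 CPM in p27K negative cells of D2A1, and 32.4 to 38.5 CPM in p27K high and 39.8 to 52.3 CPM in p27K negative cells of EMT6. Mtf2 fell by 0.42 ± 0.09 on the log2 scale in EMT6 (adjusted p = 0.00337) and by 0.38 ± 0.13 in D2A1 (adjusted p = 0.0413), a call kept under 5 of 11 alternatives. It was lost without D2A1 tumour 1 or 2 (adjusted p = 0.172 and 0.154), with no filter on low counts (adjusted p = 0.197), with DESeq2 and limma-voom, and in the joint fit. In 4T07 its change was 0.11 ± 0.12 (adjusted p = 0.471), and -0.03 without tumour 2. The ratio of Phf19 to Mtf2 counts changed by -3.21 ± 0.81 on the log2 scale over 12 tumours (SD), and was lower in p27K high cells of 12 of 12. Exons of Mtf2 overlap those of Tmed5 on the opposite strand.

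Jarid2 (chromosome 13, 44729474 to 44921643, plus strand) encodes an accessory subunit of a separate form of PRC2 and was higher in p27K high cells of 11 of 12 tumours. In 4T07 it stood at 20.7, 32.5, 21.6 and 21.3 CPM in p27K high cells of tumours 1 to 4, against 17.2, 16.9, 18.1 and 18.2 CPM in p27K negative cells. Jarid2 stood at 33.8 to 45.6 CPM in p27K high and 21.6 to 39.9 CPM in p27K negative cells of D2A1, and at 34.3 to 42.6 CPM in p27K high and 23.8 to 32.2 CPM in p27K negative cells of EMT6. The gates overlapped in D2A1 and in neither other line. Jarid2 rose by 0.43 ± 0.06 on the log2 scale in EMT6 (adjusted p = 4.5e-04) and by 0.43 ± 0.14 in 4T07 (adjusted p = 0.0444). The 4T07 change was 0.25 without tumour 2 (adjusted p = 0.0193). The 4T07 call was lost without tumour 1, 3 or 4, without pairing the gates by tumour, and when libraries were scaled by total count. In D2A1 the change of Jarid2, 0.51 ± 0.18, had an adjusted p of 0.0513. It ran from 0.34 without D2A1 tumour 2 (adjusted p = 0.279) to 0.74 without tumour 3 (adjusted p = 4.75e-04), and passed the test under 5 of 11 alternatives.

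The PRC1 members did not share a direction. Bmi1 (chromosome 2, 18677018 to 18686629, plus strand) encodes a RING finger partner of the ubiquitin ligase. In 4T07 it stood at 85.9, 172, 97.8 and 100.1 CPM in p27K high cells of tumours 1 to 4, against 57.1, 76.9, 75.8 and 75.5 CPM in p27K negative cells. In D2A1 it stood at 86.2, 85.7, 74.5 and 79.0 CPM in p27K high cells and 106, 95.6, 101 and 100.2 CPM in p27K negative cells. In EMT6 it stood at 179, 204, 207 and 216 CPM in p27K high cells and 219, 239, 239 and 229 CPM in p27K negative cells. The p27K high libraries were thus above those of the p27K negative gate in 4T07 and below them in D2A1 and EMT6, without overlap. Bmi1 rose by 0.63 ± 0.14 on the log2 scale in 4T07 (adjusted p = 0.00823) and fell by 0.20 ± 0.05 in EMT6 (adjusted p = 0.00633). In D2A1 its change was -0.31 ± 0.11 (adjusted p = 0.0565, and from 0.026 to 0.343 over 11 alternatives, of which 5 passed the test). The test of equal change gave an adjusted p of 5.76e-04, and from 5.58e-07 to 0.00684 over 19 alternatives. Without tumour 2 the 4T07 change was 0.46 (adjusted p = 1.64e-04), and the EMT6 call was lost when gates were not paired (adjusted p = 0.0541) and in the joint fit of all libraries (adjusted p = 0.162).

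Cbx7 and Cbx2 encode chromodomain proteins that read the PRC2 mark for PRC1. Cbx7 (chromosome 15, 79915807 to 79971119, minus strand) stood at 57.3, 55.5, 54.5 and 81.0 CPM in p27K high cells of D2A1 tumours 1 to 4, against 28.3, 37.0, 47.1 and 35.6 CPM in p27K negative cells. In EMT6 it stood at 26.5 to 30.0 CPM in p27K high and 19.1 to 21.97 CPM in p27K negative cells, and in 4T07 at 14.7 to 20.7 CPM in p27K high and 13.4 to 17.5 CPM in p27K negative cells. The gates overlapped in 4T07 and not in the other lines. Cbx7 rose by 0.77 ± 0.16 on the log2 scale in D2A1 (adjusted p = 0.0033) and 0.51 ± 0.07 in EMT6 (adjusted p = 1.8e-04), while its change in 4T07 was 0.14 ± 0.10 (adjusted p = 0.296). Its exons overlap those of Apobec3 on the opposite strand. Cbx2 (chromosome 11, 119022962 to 119031270, plus strand) stood at 6.95 to 16.2 CPM in p27K high and 17.5 to 21.6 CPM in p27K negative cells of 4T07. It stood at 12.2 to 17.8 CPM in p27K high and 14.9 to 21.6 CPM in p27K negative cells of D2A1, and at 9.74 to 12.5 CPM in p27K high and 13.5 to 18.3 CPM in p27K negative cells of EMT6. Cbx2 fell by 0.71 ± 0.17 on the log2 scale in 4T07 (adjusted p = 0.0117) and by 0.61 ± 0.10 in EMT6 (adjusted p = 0.00102), and its change in D2A1 was -0.41 ± 0.19 (adjusted p = 0.129). The ratio of Cbx7 to Cbx2 counts was 2.05-fold higher in p27K high cells over 12 tumours, a log2 change of 1.03 ± 0.38 (SD), and higher in 12 of 12.

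**Figure D4:**
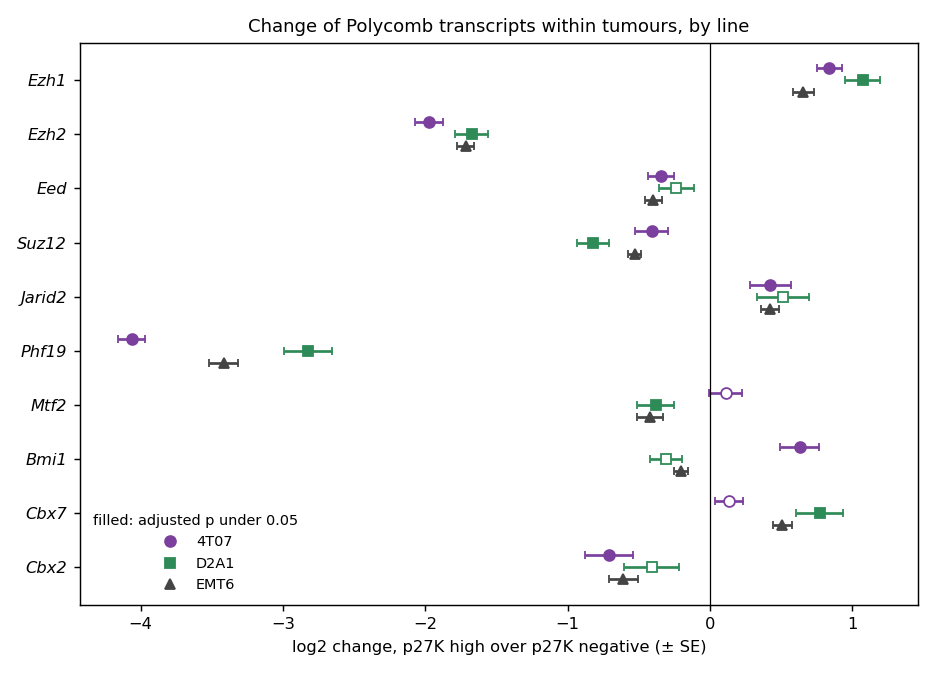
Log2 change of the 10 members, p27K high over p27K negative, with SE, in 3 lines, where filled markers have an adjusted p under 0.05. Phf19 and Ezh2 lie farthest left and Ezh1 right of 0 in each line, and Bmi1 lies right of 0 in 4T07 and left of it in D2A1 and EMT6.

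Of the 10 members, 3 rose and 5 fell in 4T07, where 22.1% of all genes tested rose and 23.6% fell, and 2 were not called. In D2A1, 2 rose and 4 fell, beside 14.9% and 14.6% of all genes, and 4 were not called. In EMT6, 3 rose and 7 fell, beside 24.1% and 25.1% of all genes. The median change of the members was -0.12, -0.35 and -0.41 in 4T07, D2A1 and EMT6, beside 0.00, 0.02 and 0.02 for all genes tested. The gates did not overlap for 6 members in 4T07, 8 in D2A1 and 10 in EMT6, beside 38.1%, 30.9% and 34.3% of all genes tested. The members were chosen with earlier results of these data known, so these counts and medians are a description. Ezh1 rose in all 3 lines and Ezh2, Suz12 and Phf19 fell in all 3. For the average of the 3 lines, 52.4% of 13559 genes were called, with 28.4% rising and 24% falling. By it Ezh1, Jarid2 and Cbx7 rose, and 6 members, all others but Bmi1, fell. That average was 0.89 ± 0.05 for Ezh1, -1.76 ± 0.05 for Ezh2 and -3.40 ± 0.07 for Phf19 (SE, n = 12 tumours). The average for Mtf2, -0.20 ± 0.07 (adjusted p = 0.0219), was -0.12 without the 3 shallow D2A1 tumours and then did not pass the test (adjusted p = 0.346).

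The test of equal change in the 3 lines called 5 of 10 members, beside 24.5% of all genes. Besides Phf19 and Bmi1 these were Ezh1 (adjusted p = 0.044), Mtf2 (adjusted p = 0.0318) and Cbx7 (adjusted p = 0.0306). The calls of these 3 were not firm. The adjusted p of Ezh1 ran from 0.0223 to 0.136 over 19 alternatives and stayed under the threshold in 5 of them, that of Mtf2 from 0.0128 to 0.129 (under it in 11), and that of Cbx7 from 0.00299 to 0.104 (under it in 12). For Ezh2 the test gave an adjusted p of 0.0958. Each direction given for a member in a line was kept under scaling by total count, except that of Mtf2 in 4T07.

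The fall of Ezh2 stood within a wider fall of proliferation genes. A list of 21 cell cycle genes was read, which holds such genes and also Cdkn1b, Rb1 and Rbl2. Of the 21, 18 fell in each line, beside 23.6%, 14.6% and 25.1% of all genes in 4T07, D2A1 and EMT6. The median log2 change of the list was -2.41 in 4T07, -1.80 in D2A1 and -1.75 in EMT6. Top2a, a topoisomerase of dividing cells, changed by -5.13 ± 0.13, -4.03 ± 0.14 and -4.92 ± 0.18 in 4T07, D2A1 and EMT6. Mcm2, a subunit of the replicative helicase, changed by -1.92 ± 0.09, -1.58 ± 0.13 and -1.54 ± 0.07, close in size to Ezh2. E2f1, an activator of S phase genes, changed by -1.36 ± 0.12, -0.58 ± 0.16 and -0.74 ± 0.06, and its D2A1 call was lost without tumour 1, 2 or 4 (adjusted p up to 0.103). Of the pocket proteins, which bind E2F factors, Rbl1 fell by 2.75 ± 0.09, 1.67 ± 0.15 and 1.77 ± 0.08 on the log2 scale in the same 3 lines. Rbl2 rose in 4T07 by 0.48 ± 0.09 (adjusted p = 0.00385) and changed by 0.31 ± 0.15 in D2A1 and 0.09 ± 0.09 in EMT6, which did not pass the test. Cdkn1b rose by 0.90 ± 0.11, 0.46 ± 0.11 and 0.54 ± 0.04, a call lost in D2A1 without tumour 4 (adjusted p = 0.0562). Whether reads of the reporter were counted towards Cdkn1b was not tested. Mki67 changed by -6.52 ± 0.21, -5.92 ± 0.23 and -5.31 ± 0.09.

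The genes most like each catalytic subunit were found by Pearson's r of log2 CPM over the 24 libraries, centred within line, among 9019 genes with a mean of at least 5 CPM in every line. Genes with the symbols of predicted genes or pseudogenes were passed over when the most alike were named. Those most like Ezh2 were Kif23, a mitotic kinesin gene (r = 0.993), the mitotic kinase gene Aurka, Hmgb2, Ckap2l and Cep55 (r = 0.991 each). Kif23 changed by -5.59, -4.89 and -5.06 on the log2 scale in 4T07, D2A1 and EMT6, so the likeness is of pattern and not of size. Those most like Ezh1 were Eno2, which encodes an enolase (r = 0.974), Numbl (r = 0.973), Sfxn3 (r = 0.969), Gpi1, a glycolytic isomerase gene (r = 0.964), and Ccnl2 (r = 0.963). Eno2 changed by 1.62, 1.89 and 1.27 in the same lines. Ezh1 and Ezh2 had r = -0.935. The libraries share the gate contrast, so these values are a description.

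Other Polycomb genes, a list of 35, were read from the same fits. Of 33 tested in 4T07, 9 rose, 6 fell and 18 were not called, beside 22.1% of all genes that rose and 23.6% that fell. Of 33 in D2A1, 4 rose, 8 fell and 21 were not called, beside 14.9% and 14.6% of all genes. Of 32 in EMT6, 9 rose, 12 fell and 11 were not called, beside 24.1% and 25.1%. The list's median change was 0.08, -0.03 and 0.01 in the 3 lines. Auts2 and Asxl3 were too low to test in any line. Scaling by total count, which moved the median change of all genes in 4T07 by -0.14, left 6 rises and 6 falls there, and the same counts in the other lines. Of the list's 48 calls in a line, 25 were kept under every alternative run (other tools, scalings and filters, no pairing, a joint fit, and each tumour left out in turn), 23 were lost under at least 1, and none changed sign.

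Among PRC2 genes of the list, 1 of 7 rose in each line, beside 22.1%, 14.9% and 24.1% of all genes in 4T07, D2A1 and EMT6. In the same lines 3, 4 and 5 of the 7 fell, beside 23.6%, 14.6% and 25.1% of all genes. Phf1, the remaining Polycomb-like gene, rose in all 3 lines, so it moved opposite to Phf19. It averaged 50.7 CPM in p27K high and 30.1 CPM in p27K negative cells of 4T07, 103 CPM in p27K high and 39.6 CPM in p27K negative cells of D2A1, and 64.3 CPM in p27K high and 32.6 CPM in p27K negative cells of EMT6. Its log2 change was 0.72 ± 0.12 in 4T07 (adjusted p = 0.00246), 1.36 ± 0.14 in D2A1 (adjusted p = 6.42e-06) and 0.98 ± 0.06 in EMT6 (adjusted p = 1.1e-06), and the test of equal change gave an adjusted p of 0.0197. Rbbp7, which encodes a histone-binding subunit, fell by 0.63 ± 0.09, 0.86 ± 0.11 and 0.64 ± 0.04 on the log2 scale in 4T07, D2A1 and EMT6. Its paralog Rbbp4 fell by 0.36 ± 0.11 in 4T07 and 0.29 ± 0.04 in EMT6. Epop, which encodes a subunit of the Polycomb-like form of PRC2, fell by 0.81 ± 0.16, 1.28 ± 0.32 and 0.75 ± 0.10 in the 3 lines. Aebp2, whose protein joins JARID2 in the other form, fell by 0.43 ± 0.11 in D2A1 and 0.20 ± 0.04 in EMT6. Lcorl, which encodes a PALI protein of PRC2, fell by 0.83 ± 0.16 in D2A1 and 0.39 ± 0.06 in EMT6, with a change of 0.08 ± 0.14 in 4T07 and an adjusted p of 0.0148 for the test of equal change. Under at least 1 alternative the calls of Rbbp4 in 4T07, Aebp2 in both lines and Epop in D2A1 were lost, the last without tumour 4 (adjusted p = 0.124).

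PRC1 genes of the list moved in both directions. Of 21 tested in 4T07, 6 rose and 2 fell, beside 22.1% and 23.6% of all genes. In D2A1, 2 of 21 rose and 3 fell, beside 14.9% and 14.6%, and in EMT6, 5 of 20 rose and 6 fell, beside 24.1% and 25.1%. L3mbtl2, a gene of a variant PRC1 complex, fell by 1.06 ± 0.13, 1.24 ± 0.15 and 1.09 ± 0.08 on the log2 scale in 4T07, D2A1 and EMT6. Among those that rose in 4T07 and EMT6 were the polyhomeotic gene Phc3 (0.46 ± 0.09 and 0.28 ± 0.05), Rybp of variant PRC1 (0.66 ± 0.17 and 0.30 ± 0.07) and the BCOR relative Bcorl1 (0.37 ± 0.10 and 0.32 ± 0.08). Ring1, a ubiquitin ligase gene, rose in D2A1 (0.55 ± 0.16) and EMT6 (0.30 ± 0.08). Yaf2, a relative of Rybp, fell by 0.64 ± 0.12 in D2A1 and 0.31 ± 0.06 in EMT6. Phc2 fell by 0.74 ± 0.13 in 4T07 and 0.13 ± 0.05 in EMT6, with an adjusted p of 0.0206 for the test of equal change. The EMT6 call of Phc2 held under 4 of 11 alternatives, and those of Rybp, Bcorl1 and Ring1 in both lines and of Yaf2 in EMT6 were each lost under 1 to 4 of 11.

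Genes that oppose Polycomb marks were also on the list. Kdm6a and Kdm6b encode demethylases of the PRC2 mark. Kdm6a rose by 0.62 ± 0.09 on the log2 scale in 4T07 and 0.38 ± 0.07 in EMT6, and its change in D2A1 was 0.27 ± 0.14. Kdm6b rose by 0.49 ± 0.14 in D2A1 and 0.34 ± 0.10 in EMT6, and its change in 4T07 was 0.22 ± 0.08 (adjusted p = 0.0524). Of the ASXL partners of the H2A deubiquitinase BAP1, Asxl1 fell by 0.65 ± 0.08, 0.62 ± 0.14 and 0.21 ± 0.06 in 4T07, D2A1 and EMT6. Asxl2 rose by 0.51 ± 0.11 in 4T07 and 0.14 ± 0.05 in EMT6. The EMT6 calls of Asxl1 and Asxl2 held under 6 and 5 of 11 alternatives, and those of Kdm6b were lost without D2A1 tumour 1, 2 or 4 (adjusted p up to 0.143) and in EMT6 without tumour 2 or without pairing the gates (adjusted p up to 0.07).

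**Figure D5:**
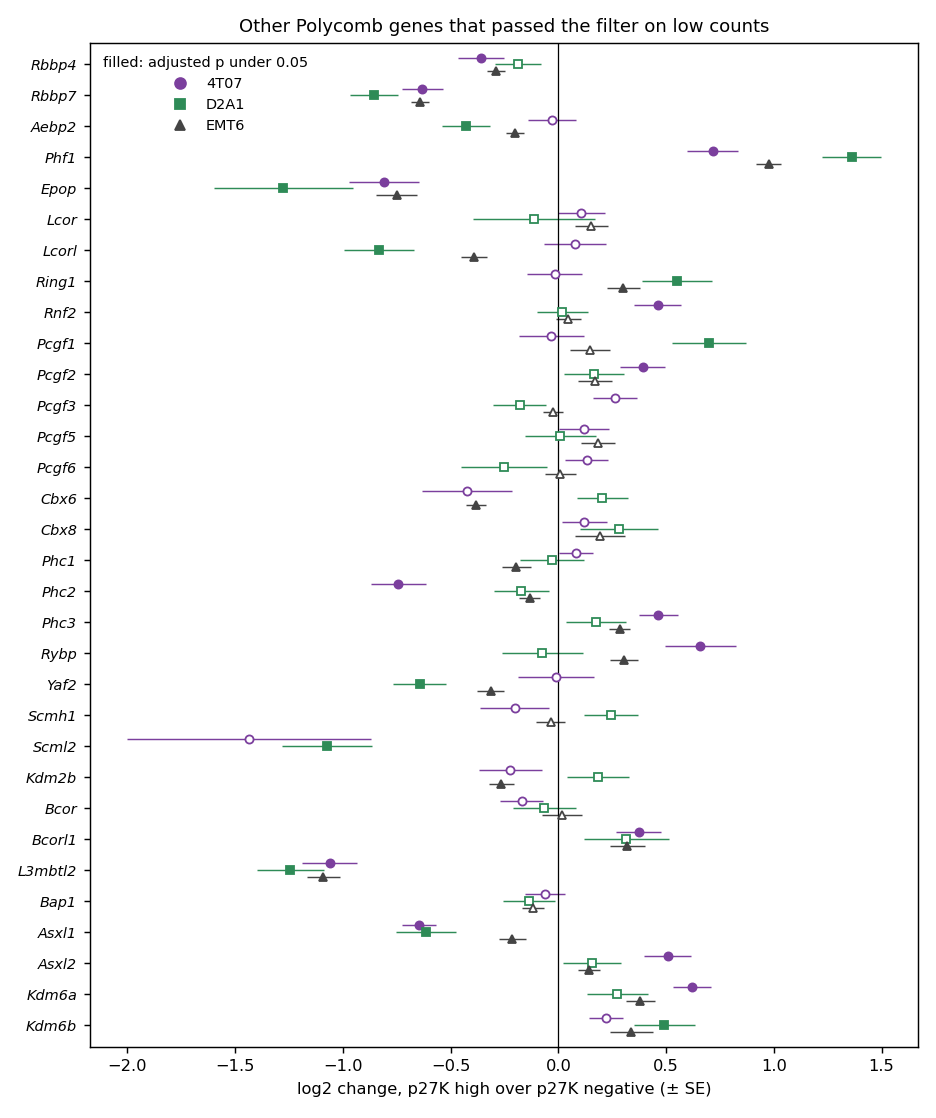
Log2 change of other Polycomb genes that passed the filter on low counts, p27K high over p27K negative, with SE, in 3 lines, where filled markers have an adjusted p under 0.05. Phf1 lies right of 0 and Rbbp7, Epop, L3mbtl2 and Asxl1 left of 0 in all 3 lines.

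Textbook targets of Polycomb were mostly near the floor. Of 41 such genes, the 39 Hox cluster genes with Cdkn2a and Cdkn2b, 11 had no count in any 4T07 library, 13 in none of D2A1 and 20 in none of EMT6, and 10, 11 and 12 passed the filter on low counts. In 4T07 Hoxa2 fell by 0.81 ± 0.13 on the log2 scale (adjusted p = 0.00227), at 7.11 CPM in p27K high and 12.5 CPM in p27K negative cells. Its change was -0.52 ± 0.22 in D2A1 and 0.59 ± 0.24 in EMT6, where it was higher in p27K high cells of 4 of 4 tumours, and neither passed the test in its line. The test of equal change of Hoxa2 gave an adjusted p of 0.00621. In D2A1 the cell cycle inhibitor gene Cdkn2b rose by 0.97 ± 0.18 (adjusted p = 0.00117), at 31.7 CPM in p27K high and 15.6 CPM in p27K negative cells. In EMT6 Hoxc4, Hoxc5, Hoxc6 and Cdkn2a rose by 1.18 ± 0.24, 1.05 ± 0.33, 0.69 ± 0.13 and 0.68 ± 0.18. These 4 were low, from 1.47 CPM for Hoxc5 to 7.45 CPM for Hoxc6 in p27K high cells, and 0.731 to 4.62 CPM in p27K negative cells. No target was called in more than 1 line, and the call of Hoxc5 held under 4 of 10 alternatives and that of Cdkn2a was lost without EMT6 tumour 1 or 2. Cdkn2a was far higher in D2A1, at 227 CPM in p27K high and 178 CPM in p27K negative cells. Its change there, 0.31 ± 0.14, was positive in 4 of 4 tumours and did not pass the test (adjusted p = 0.1165). Cdkn2a had 0 to 3 counts in p27K high and 4 to 11 counts in p27K negative libraries of 4T07, and Cdkn2b had none and 4 to 5, so that neither could be tested in 4T07.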

How the data were processed

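Bulk RNA was measured in 24 libraries. Per the labels' protocols, the miRNeasy Micro kit was used for RNA, and GENEWIZ sequenced it and made the gene count matrices. The submitters' processing notes name mm10 and DESeq2. The aligner, counter, library kit and use of strand were not stated. The authors deposited a table of raw whole-number counts per line. Symbols of the 4T07 table, written in capitals, were matched to the other tables (24012), to a reference table (507) or kept as written (437). Entries with a date for a name (26 per table), a blank name (176 each in D2A1 and EMT6, at most 0.0109% of counts) or a total were left out.

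Within each line, gates were compared by edgeR's quasi-likelihood test (version 4.0.16, under R 4.3.3) after TMM scaling and its default count filter (minimum 10), with tumour blocks. SE is the change over the square root of F. A call needed a p below 0.05 once adjusted over all genes tested (Benjamini-Hochberg). A joint fit of 24 libraries gave the average change and the test of equal change. Ratios used counts plus 0.5. The procedure was also run on simulated counts, with the same spread for every gene and no tumour effect. Those settings differ from the data, so that run gives no error rate for the calls here.

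Gates were paired by the tumour number of the labels in 4T07 and D2A1. EMT6 columns carry the numbers 0, 1, 2 and 4, unlike the titles, and were paired by these. Deviations of same-numbered libraries from their group means correlated at 0.195 to 0.802 in 4T07, 0.0821 to 0.295 in D2A1 and 0.574 to 0.814 in EMT6. P-values rest on how the difference between the gates varied from tumour to tumour, and errors do not cover PCR copies. The members and gene lists were chosen with earlier results of these data known. Of the other lists, the text names Polycomb genes called in the same direction in at least 2 lines, the 3 with the smallest p for unequal change and called targets. It also names 7 genes of the cell cycle list and the 5 genes most like Ezh1 and Ezh2. A gene of the Polycomb list is counted in its totals but not reported here. Alternatives were DESeq2 1.42.0, limma-voom (limma 3.58.1), total-count scaling, no filter and a stricter one (50 counts), no pairing, each tumour left out in turn, a joint fit, and ratio pseudocounts of 0 and 2. Joint fits without the 3 shallow D2A1 tumours and the merged exon length were added after seeing the data. Gene positions came from GENCODE vM21 (GRCm38, the same assembly as mm10) and count from 1. Proteins were not used here.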

Additional observations from a re-analysis of the deposited data

Results flagged for a closer look

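In 4 of 66 groups of 4 libraries 1 library lay far from the other 3, with the gap to its neighbour over the range of the group above Dixon's 95% critical value. Chance alone gives about 1 such group in 20. Jarid2 in p27K high cells of 4T07 had this share at 0.906, with 32.5 CPM in tumour 2 and 20.7 to 21.6 CPM in the others. Bmi1 in p27K negative cells of 4T07 had it at 0.938, with 57.1 CPM in tumour 1 and 75.5 to 76.9 CPM in the others. Cbx7 in p27K high cells of D2A1 had it at 0.873, with 81.0 CPM in tumour 4 and 54.5 to 57.3 CPM in the others. Eed in p27K negative cells of D2A1 had it at 0.855, with 58.2 CPM in tumour 3, a library of 1797966 counts, and 51.1 to 52.1 CPM in the others.

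The gate change differed between the 3 lines for 5 of 10 members by the edgeR test of equal change, which called 24.5% of 13559 genes tested. The adjusted p was 0.00022 for Phf19, 0.000576 for Bmi1, 0.0306 for Cbx7, 0.0318 for Mtf2 and 0.044 for Ezh1. Of 19 alternatives, 12 kept the call of Cbx7, 11 that of Mtf2 and 5 that of Ezh1. The change of the Ezh1 to Ezh2 ratio differed between 4T07 and EMT6 and between D2A1 and EMT6, with an exact permutation p of 0.0429 each when adjusted over 3 pairs of lines. Line and run cannot be told apart in any of these.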

How the results depend on the processing

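Of 710 values of a member under an alternative, 640 kept their direction and their side of the threshold, 55 lost the call, 12 gained one and 3 changed sign. Those 3 were Mtf2 in 4T07 at -0.025 under scaling by total count and -0.028 without tumour 2 (from -0.028 to 0.169 over the tumours left out), and the average of Bmi1 at -0.017 under scaling by total count. Neither Mtf2 in 4T07 nor the average of Bmi1 was called under any alternative run. Ezh1, Ezh2 and Phf19 kept their calls in each line and for the average under all alternatives run. Scaling by total count moved the median change of all genes in 4T07 by -0.14, and the share of calls that rose was then 33.1%, against 48.3% with TMM. For the average that share was 40.9%, against 54.2%.

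The number of members called in 4T07 was 8 of 10, beside 45.6% of all genes tested. It was 5 when gates were not paired in a replicate block, beside 4404 of 12831 genes. With a tumour left out it was 5 to 8, beside 3698 to 7710 genes. The test of equal change called 5 members, beside 24.5% of all genes. With no replicate block it called 3, beside 1604 of 13559 genes. It called 3 with limma-voom, 3 without the 3 shallow D2A1 tumours, and 2 to 5 with a tumour left out. The shares of all genes called under these last settings are not given here, so the lower counts are no result about the members alone. The paired design changed the size of no ratio. Without the block the ratio changed by 2.81, 2.74 and 2.38 in 4T07, D2A1 and EMT6, now with an exact permutation p of 0.0286 in each line, since 8 unpaired libraries allow a smaller p. The difference of the ratio between 4T07 and EMT6 ran from 0.38 to 0.47 and that between D2A1 and EMT6 from 0.31 to 0.41 with a tumour left out. The block changed no call of a member other than those named here and beside the results: without it Eed, Suz12 and Jarid2 lost their calls in 4T07 and Bmi1 in EMT6, and Jarid2 and Bmi1 gained one in D2A1 (adjusted p = 0.0466 and 0.0415), while Ezh1 and Cbx7 lost the call of unequal change (adjusted p = 0.136 and 0.104). Over all genes, 5854 were called in 4T07 and 3698 without tumour 1, 3789 in D2A1 and 2434 without tumour 1, 6560 in EMT6 and 4053 in the joint fit, and 3325 for unequal change and 1604 without the block. The cause of these shifts was not tested. Depth limits low genes most in the p27K negative libraries of D2A1.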
